A study of Mus musculus with 4 samples.

Results

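Smo, Ednra, Gfra1, Ptpn13 and Tead1 are 5 signalling genes that stood among the largest rises of macrophages from leukaemic spleen over macrophages from normal spleen. They are 5 of the 17008 genes with a read in any library, and they were picked by name from that ranking, so the contrast between the spleens chose them and is given below as a description only. Each had 396 to 1721 reads in the T-ALL spleen library and 0 to 45 reads in the normal spleen library. The working name "switched on" holds unevenly. Ednra, Gfra1 and Tead1 had at most 1 read in normal spleen, but Smo and Ptpn13 had 45 and 27, and 4 of the 5 genes had 10 or more reads in normal bone marrow.

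The series holds RNA sequencing of sorted macrophages from C57BL/6J mice, with 4 libraries in 4 groups and 1 library per group. The groups are spleen and bone marrow of mice with T-ALL, an acute leukaemia of immature T cells, at day 21 of the experiment, and normal spleen and normal bone marrow at day 0. Mice were 6 to 8 weeks old when they received GFP+ leukaemia cells, isolated from leukaemic mice, with no irradiation before the transplant, so the hosts kept their own marrow. All of the mice that received cells developed T-ALL and lived for 35 to 40 days. The sources used here do not give the oncogene behind the leukaemia, the markers of the sort, or how many mice of which sex a library holds. The study's question is how macrophages in leukaemia differ from those of healthy organs.

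Smo encodes Smoothened, a membrane protein that carries the Hedgehog signal. Without ligand, the receptor Patched holds Smoothened inactive, and when a Hedgehog ligand binds Patched, Smoothened moves into the primary cilium and GLI transcription factors are released from their inhibitor SUFU. Ednra encodes the type A endothelin receptor, a G-protein-coupled receptor best known for the contraction of vascular smooth muscle. Gfra1 encodes the co-receptor through which glial cell line-derived neurotrophic factor (GDNF) reaches the kinase RET, a route known from kidney, nerve and testis. Ptpn13 encodes a large tyrosine phosphatase with FERM and PDZ domains that binds the death receptor Fas. Tead1 encodes a DNA-binding partner of the co-activators YAP and TAZ, the end point of the Hippo pathway. None of the 5 is a usual marker of macrophages.

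The promoters of these genes are shown because factors of several of these pathways act at promoters. The rise the genes share is what chose them, and shared control was not tested. RefSeq (GRCm38.p6) gave a sequence for 4 of the 5 genes, and Tead1 is named only. Each sequence holds the 250 bases before the gene's start, 5′ to 3′ on the gene's strand, with motif matches in capitals. Smo lies on the plus strand (chr6:29735247-29735496), Ednra on the minus strand (chr8:77724453-77724702), Gfra1 on the minus strand (chr19:58455399-58455648) and Ptpn13 on the plus strand (chr5:103424942-103425191).
Smo: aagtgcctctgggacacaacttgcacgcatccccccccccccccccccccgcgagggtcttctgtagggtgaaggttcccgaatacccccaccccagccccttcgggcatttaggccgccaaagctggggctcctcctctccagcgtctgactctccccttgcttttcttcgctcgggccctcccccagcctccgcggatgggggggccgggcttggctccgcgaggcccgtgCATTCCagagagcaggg
Ednra: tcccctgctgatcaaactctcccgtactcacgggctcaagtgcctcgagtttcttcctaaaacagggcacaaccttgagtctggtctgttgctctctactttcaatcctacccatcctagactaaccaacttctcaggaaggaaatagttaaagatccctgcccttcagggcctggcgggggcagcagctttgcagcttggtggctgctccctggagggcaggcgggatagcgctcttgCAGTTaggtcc
Gfra1: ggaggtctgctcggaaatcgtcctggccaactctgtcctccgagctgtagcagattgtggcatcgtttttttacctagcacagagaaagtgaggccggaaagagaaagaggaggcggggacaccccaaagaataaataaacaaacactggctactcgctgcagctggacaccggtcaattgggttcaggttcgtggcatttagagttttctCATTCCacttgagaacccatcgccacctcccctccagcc
Ptpn13: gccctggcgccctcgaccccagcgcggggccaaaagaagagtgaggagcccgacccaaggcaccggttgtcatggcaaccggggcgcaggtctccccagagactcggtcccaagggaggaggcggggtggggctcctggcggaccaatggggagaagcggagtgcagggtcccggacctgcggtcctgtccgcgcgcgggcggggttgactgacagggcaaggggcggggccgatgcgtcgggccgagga

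6 short motifs were searched on both strands of these windows: TGGGAA for RBPJ, the DNA-binding partner of Notch, GGAATG for TEAD factors, GGGTGGT for GLI factors, TGTGGT for RUNX factors, CTTTGA for TCF and LEF factors, and AACTG for MYB. No match overlaps another in the 4 sequences. The TEAD motif was found in Smo, 17 bases before the start, and in Gfra1, 39 bases before the start, both on the other strand, where it reads CATTCC in the sequences above. The MYB motif was found in Ednra, 11 bases before the start and on the other strand, as CAGTT. Ptpn13 held none of the 6. Among 27025 RefSeq promoters cut to the same 250 bases, the TEAD motif was in 12.6% and the MYB motif in 39.1%, and the 4 motifs not found in these windows were in 21.5% (RBPJ), 3.86% (GLI), 14.2% (RUNX) and 14.0% (TCF and LEF). The windows also differ in base composition, with 68.4% G and C in Smo and 72.4% in Ptpn13, against 54.8% in Ednra and 52.4% in Gfra1. A match is a description of the letters, not a bound site.

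The libraries were of like depth, from 8979385 to 9809676 reads uniquely assigned to genes, so 1 read was worth 0.101 to 0.112 CPM. CPM is a gene's reads per 1000000 reads of the library, with library totals scaled by TMM, a correction for composition. All 16 macrophage markers had reads in all 4 libraries, with Csf1r at 1421 and 947 CPM in T-ALL spleen and T-ALL bone marrow, and 2415 and 133 CPM in normal spleen and normal bone marrow. In normal bone marrow 12 of the 16 reached 10 CPM, and their sum, 3844 CPM, was the lowest of the 4 libraries. All 16 reached 10 CPM in each of the other libraries. Neutrophil genes summed to 188 CPM in T-ALL spleen and 559.6 CPM in normal spleen, and were far higher in T-ALL bone marrow, at 29793 CPM, and normal bone marrow, at 46838 CPM. The Y-linked gene Ddx3y had 532 and 874 reads in T-ALL spleen and T-ALL bone marrow and 0 reads in both normal libraries. Xist, made from the inactive X chromosome, was at 416 and 0.644 CPM in T-ALL spleen and T-ALL bone marrow, against 849 and 861 CPM in normal spleen and normal bone marrow. Disease and the sex of the RNA's donors therefore cannot be told apart in either comparison of T-ALL with normal. The T-ALL libraries differ from each other in Xist, so organ and donor sex cannot be told apart between them either. No group has a replicate, so no p-value is given, and intervals (95%) cover the counting of reads only. PCR can copy a molecule into several reads, which would make the intervals too narrow even for that.

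Smo (Gene ID 319757, chromosome 6) had 1721 reads in T-ALL spleen, 621 in T-ALL bone marrow, 45 in normal spleen and 443 in normal bone marrow. Its level was 186 CPM (178 to 195) in T-ALL spleen and 66.6 CPM (61.5 to 72.1) in T-ALL bone marrow, against 5.03 CPM (3.67 to 6.74) in normal spleen and 44.9 CPM (40.9 to 49.3) in normal bone marrow. None of the 4 intervals overlaps another, so normal spleen stood alone as the low library. By RPKM, which also divides by gene length, Smo ranked 1812 of 15133 genes in T-ALL spleen and 11095 of 15321 in normal spleen. The share of the gene's length covered by reads was 98.52% in T-ALL spleen, against 38.77% in normal spleen, and it was 98.21% in T-ALL bone marrow and 96.66% in normal bone marrow.

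Ednra (Gene ID 13617, chromosome 8) had 448 reads in T-ALL spleen, 28 in T-ALL bone marrow, 0 in normal spleen and 10 in normal bone marrow. Its level was 48.5 CPM (44.1 to 53.2) in T-ALL spleen, 3.0 CPM (2.0 to 4.34) in T-ALL bone marrow and 1.01 CPM (0.487 to 1.87) in normal bone marrow. In normal spleen the count of 0 allows up to 3 reads, or 0.336 CPM. Ednra was thus the gene of the 5 whose reads lay most nearly in 1 library. Its coverage was 75.54% of its length in T-ALL spleen and 29.62% in T-ALL bone marrow, against 0% in normal spleen and 11.5% in normal bone marrow.

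Gfra1 (Gene ID 14585, chromosome 19) had 492 reads in T-ALL spleen, 160 in T-ALL bone marrow, 1 in normal spleen and 123 in normal bone marrow. Its level was 53.3 CPM (48.7 to 58.2) in T-ALL spleen and 17.2 CPM (14.6 to 20) in T-ALL bone marrow, against 0.112 CPM (0.00283 to 0.623) in normal spleen and 12.5 CPM (10.4 to 14.9) in normal bone marrow. The intervals of the 2 bone marrow libraries overlap slightly, and both lay far above normal spleen. Coverage was 95.95% of the gene's length in T-ALL spleen and 1.48% in normal spleen. Gfra1 and Smo shared this pattern, in which normal bone marrow already held a clear level of the gene.

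Ptpn13 (Gene ID 19249, chromosome 5) had 1551 reads in T-ALL spleen, 164 in T-ALL bone marrow, 27 in normal spleen and 34 in normal bone marrow. Its level was 168 CPM (160 to 176) in T-ALL spleen and 17.6 CPM (15 to 20.5) in T-ALL bone marrow, against 3.02 CPM (1.99 to 4.39) in normal spleen and 3.45 CPM (2.39 to 4.82) in normal bone marrow. The normal libraries did not differ beyond the counting error, and both T-ALL libraries lay above them. Tead1 (Gene ID 21676, chromosome 7) had 396 reads in T-ALL spleen, 44 in T-ALL bone marrow, 1 in normal spleen and 2 in normal bone marrow. Its level was 42.9 CPM (38.8 to 47.3) in T-ALL spleen and 4.72 CPM (3.43 to 6.34) in T-ALL bone marrow, against 0.112 CPM (0.00283 to 0.623) in normal spleen and 0.203 CPM (0.0246 to 0.733) in normal bone marrow, so Tead1 followed the order of Ptpn13 with almost no read in health.

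All 5 genes had the same order of libraries, T-ALL spleen above T-ALL bone marrow, normal bone marrow and normal spleen, but the last 2 places could not be separated for Ptpn13 and Tead1. T-ALL spleen above normal spleen is the choice itself, and the share of all genes with this order was not counted. Compared with each other per length, in T-ALL spleen, Smo had the highest RPKM at 47.2, followed by Ptpn13 at 20.4, Gfra1 at 16.3, Ednra at 13.4 and Tead1 at 4.34. In normal bone marrow the order was Smo at 11.4 RPKM, Gfra1 at 3.79, Ptpn13 at 0.418, Ednra at 0.280 and Tead1 at 0.0205. In bulk RNA of sorted cells, fewer cells of a type and less RNA per cell cannot be told apart. Transcripts on the other strand overlap exons of Gfra1, Ptpn13 and Ednra in the GENCODE M21 annotation (Gm16277, Gm42620 and 4933431K23Rik). None of these has a line of its own in the deposited tables and the strand setting is not given, so their reads cannot be told apart from those of the 3 genes.

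**Figure D1:**
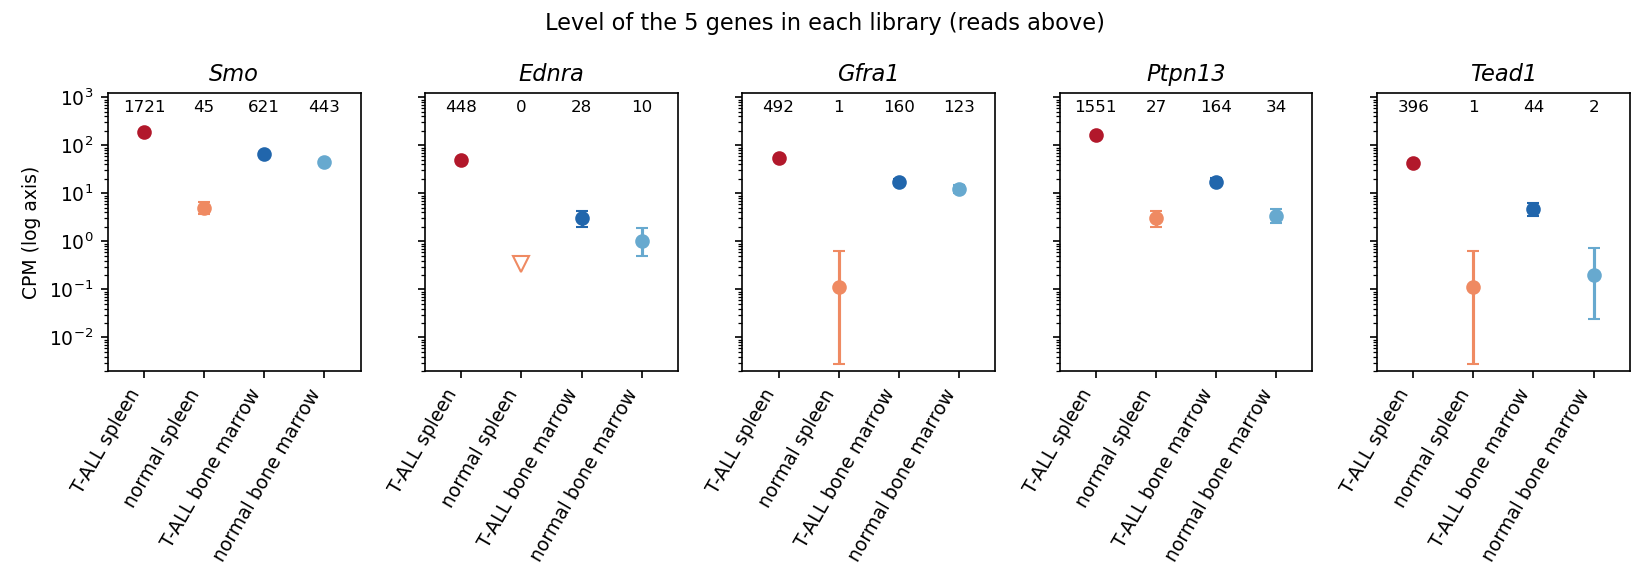
Level of Smo, Ednra, Gfra1, Ptpn13 and Tead1 in CPM (log axis) in each of the 4 libraries, 1 point per library, with exact Poisson 95% counting intervals and the number of reads printed above. The open triangle marks the limit of 0.336 CPM that 0 reads of Ednra in normal spleen allow. T-ALL spleen is the highest library for all 5 genes, and Smo and Gfra1 hold a clear level in normal bone marrow that the other 3 do not.

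In spleen, the contrast that chose them, the ratios of T-ALL to normal were large for all 5. Smo was 37.0-fold higher (27.5 to 50.9) in T-ALL spleen and Ptpn13 55.6-fold higher (38.1 to 84.6). Ednra was at least 145-fold higher, with 3 reads taken as the limit for the 0 reads of normal spleen. Gfra1 and Tead1, each with 1 read in normal spleen, had ratios of 476 (85.1 to 18846) and 383 (68.4 to 15176), so their sizes are known only broadly. A call of higher or lower asks for a 2-fold change on log2(CPM + 1), and for a level of 10 CPM or more in at least 1 of the libraries compared, which is also what makes a gene measured. All 5 passed, as did 10.3% of the 9774 genes measured on the higher side, and nothing is read from this since the rule used it. Among 9089 ranked genes, leaving out predicted, antigen receptor and sex-linked ones, Ednra, Gfra1, Ptpn13 and Tead1 took ranks 4 to 7 with log2 folds of 5.63, 5.61, 5.39 and 5.30, and Smo took rank 10 with 4.96. Their order depends on the pseudocount: with 5 CPM in place of 1 CPM, Ptpn13 (4.43) and Smo (4.25) lie above Gfra1 (3.51), Ednra (3.42) and Tead1 (3.23).

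Around Smo in that ranking stood Mpp4 at rank 8 (log2 fold 5.30) and Fbln1 at rank 9 (4.98), and just below it Cntnap1, Dnahc9, Endou and Egln3 at ranks 11 to 14 (4.86 to 4.82). Cntnap1 was at 96.1 CPM in T-ALL spleen and 2.35 CPM in normal spleen, and Endou at 226 CPM in T-ALL spleen and 6.94 CPM in normal spleen. Above all 5 stood Syt13, Wif1, which encodes a secreted inhibitor of Wnt, and Heyl, a target of Notch.

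Bone marrow gives a comparison of T-ALL with normal that shares no library with the choice. There, 1 of the 5 genes was counted as higher and 0 as lower, while 2 stayed below 10 CPM in both libraries. Among all 9716 genes measured, 8.01% were higher and 1.03% lower, 9.04% in all. The called gene was Ptpn13, at 17.6 CPM in T-ALL bone marrow, against 3.45 CPM in normal bone marrow, 5.10-fold higher (3.51 to 7.62; log2 fold 2.06), and it ranked 230 of 9056 genes. Smo was 1.48-fold higher (1.31 to 1.68) and Gfra1 1.38-fold higher (1.08 to 1.76). Both intervals lie above 1 and below 2, so the difference was larger than the counting error and smaller than the size asked for. Their ranks were 1337 and 1659.

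Ednra and Tead1 were low in bone marrow, below the minimum of 10 CPM, and have no call. The ratio of T-ALL to normal bone marrow was 2.96 (1.40 to 6.83) for Ednra, from 28 and 10 reads, and 23.3 (6.07 to 198) for Tead1, from 44 and 2 reads. All 5 ratios in bone marrow were thus above 1, and the share of all genes above 1 was not counted. The median log2 fold over the 5 genes was 0.99, which is the value of Ednra, below the minimum. The 3 measured genes had 0.56 (Smo), 0.43 (Gfra1) and 2.06 (Ptpn13), beside a median of -0.04 over all genes measured. The median in spleen, 5.39, is that of the choice itself. Whether the change differs between the organs was not tested, since 1 library per group leaves no spread to test it against.

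**Figure D2:**
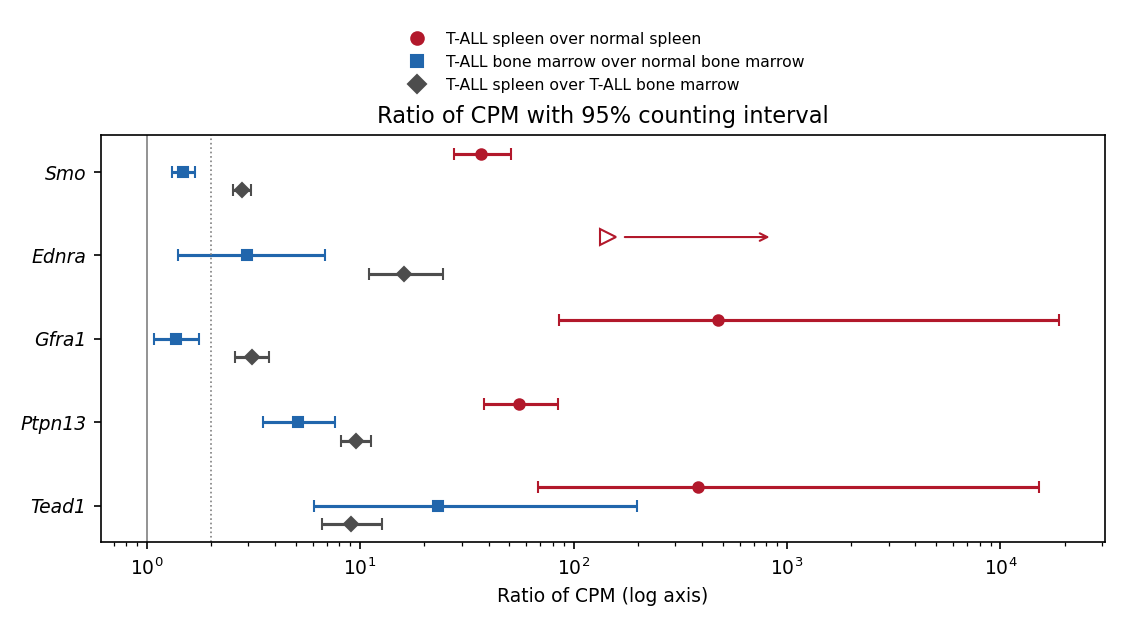
Ratio of CPM (log axis) for the 5 genes in T-ALL spleen over normal spleen, T-ALL bone marrow over normal bone marrow, and T-ALL spleen over T-ALL bone marrow, with exact binomial 95% counting intervals. The solid line marks 1, the dotted line 2, and the open triangle with an arrow the lower bound of Ednra in spleen. In bone marrow, Smo and Gfra1 sit between the lines, at 1.48 and 1.38, while Ednra, Ptpn13 and Tead1 sit beyond 2, with the interval of Ednra reaching below it.

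T-ALL spleen and T-ALL bone marrow were compared next, with the T-ALL spleen library again the one used in the choice. All 5 genes were at least 2-fold higher in T-ALL spleen, where 5.44% of the 9852 genes measured were. The ratio was 2.80 (2.55 to 3.07) for Smo and 3.10 (2.59 to 3.73) for Gfra1, and 9.54 (8.12 to 11.3) for Ptpn13 and 9.08 (6.64 to 12.7) for Tead1. Ednra had the highest ratio, 16.1 (11 to 24.6). Intervals of Smo and Gfra1 do not overlap those of the other 3. Xist was at 416 CPM in T-ALL spleen and 0.644 CPM in T-ALL bone marrow, so organ and donor sex cannot be told apart here.

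In health the organs stood the other way round for a pair of the genes. In normal spleen Smo was 8.93-fold lower (6.56 to 12.4) than in normal bone marrow, and Gfra1, with 1 read against 123, had a level 112-fold lower (19.7 to 4442). These were the 2 genes measured, and both were counted as lower, beside 14.0% of the 10072 genes measured that were lower and 30.2% that passed either way. Ednra, with 0 reads in normal spleen and 10 in normal bone marrow, was at least 3.02-fold lower. Ptpn13 and Tead1 had ratios of normal spleen to normal bone marrow of 0.876 (0.508 to 1.5) and 0.551 (0.00934 to 10.6), both intervals reaching across 1. The normal spleen library is also part of the choice, which took genes that were low there.

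The Hedgehog pathway around Smo showed little of the change that Smo did. Of 26 genes listed, 11 were measured in spleen, and without Smo 1 of 10 was higher and 1 lower. The median log2 fold of those 10 was -0.05, beside -0.08 over all genes. The higher one was Kif7, a kinesin of the cilium tip that regulates GLI proteins, at 11.4 CPM in T-ALL spleen and 1.23 CPM in normal spleen, 9.24-fold higher (4.96 to 19.1). The lower one was Cdon, a co-receptor for Hedgehog ligands, at 16.2 CPM in T-ALL spleen and 45.2 CPM in normal spleen, 2.78-fold lower (2.30 to 3.38). In bone marrow 0 of 9 measured genes passed, whichever way.

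The ligands were close to absent. Shh had 0 and 2 reads in T-ALL spleen and T-ALL bone marrow and 1 and 5 reads in normal spleen and normal bone marrow, Ihh had 1 to 3 reads in each library, and Dhh had none. Ptch1, the receptor that restrains Smo and is itself a target gene, was at 28.3 and 15 CPM in T-ALL spleen and T-ALL bone marrow, and at 23.4 and 17.3 CPM in normal spleen and normal bone marrow. Of other ligand-binding proteins, Boc, Gas1 and Hhip had at most 3 reads in any library, so a change in them could not be seen at this depth.

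Of the transcription factors, Gli1, the most direct readout of the pathway, had 20 and 9 reads in T-ALL spleen and T-ALL bone marrow and 12 and 5 reads in normal spleen and normal bone marrow. Its ratio in spleen was 1.61 (0.751 to 3.62), so no difference was detectable at this depth. Gli2 had no read in any library and Gli3 at most 3. Sufu, their inhibitor, was at 26.2 CPM in T-ALL spleen and 25.6 CPM in normal spleen. Of 11 Hedgehog target genes, 4 were measured in spleen and 5 in bone marrow. Ccnd1, cyclin D1, was the single one to pass, at 73.0 CPM in T-ALL spleen and 395 CPM in normal spleen, 5.42-fold lower, and none passed in bone marrow. Of 10 genes of the primary cilium, 6 were measured in each organ. Tulp3 and Kif3a, which carry cargo into and along the cilium, were higher in T-ALL spleen, at 13.9 and 17.2 CPM, than in normal spleen, at 6.26 and 8.05 CPM, and none passed in bone marrow. So 2 of the 6 were higher in spleen and 0 lower, beside 10.3% of all genes measured that were higher. The median log2 fold of the cilium list was 0.64 in spleen, beside -0.08 over all genes, and -0.1 in bone marrow, beside -0.04.

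Ednra was the single gene of 14 measured of the endothelin list to be higher in T-ALL spleen, and 4 were lower. Among all 9774 genes measured in spleen, 1080 were lower. Without Ednra the median log2 fold of the list was -0.66 over 13 genes, beside -0.08 over all genes measured. The 4 lower genes of the list act downstream of receptors of this kind. Gnaq, a G-protein subunit, was at 22.1 CPM in T-ALL spleen and 57.0 CPM in normal spleen. Itpr1, a calcium channel of internal stores, was at 76.9 CPM in T-ALL spleen and 165 CPM in normal spleen. Plcb2, a phospholipase, and Arrb1, a beta-arrestin, were at 74.1 and 89.5 CPM in T-ALL spleen and at 157 and 186 CPM in normal spleen. These 4 genes were 2.08 to 2.58-fold lower, and each is also used by many other receptors. In bone marrow Plcb1 was the single gene to pass of 16, at 14.5 CPM in T-ALL and 5.99 CPM in normal.

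Of the ligands, Edn1 had 10 and 2 reads in T-ALL spleen and T-ALL bone marrow and 0 and 1 reads in normal spleen and normal bone marrow. Edn2 had none and Edn3 had 2 reads, both in normal bone marrow. Ece1, which cuts the precursor into active endothelin, was at 138 and 47.3 CPM in T-ALL spleen and T-ALL bone marrow and at 177 and 31.0 CPM in normal spleen and normal bone marrow, and so was well expressed. Ece2 was at 8.77 and 11.6 CPM in T-ALL spleen and T-ALL bone marrow and at 8.39 and 15.7 CPM in normal spleen and normal bone marrow. The other receptor, Ednrb, had 9 and 24 reads in T-ALL spleen and T-ALL bone marrow and 6 and 4 reads in normal spleen and normal bone marrow. Per length, Ednra was at 13.4 RPKM and Ednrb at 0.234 RPKM in T-ALL spleen, whereas in T-ALL bone marrow the pair was nearly level, at 0.818 and 0.609 RPKM.

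In T-ALL spleen Gfra1 stood beside few reads of the partners through which it is known to signal. Ret, the kinase, had 3 and 8 reads in T-ALL spleen and T-ALL bone marrow and 13 and 12 reads in normal spleen and normal bone marrow. Ncam1, an alternative partner of Gfra1, had 1 and 270 reads in T-ALL spleen and T-ALL bone marrow and 5 and 670 reads in normal spleen and normal bone marrow, and was 2.35-fold lower in T-ALL than in normal bone marrow. Gdnf had 4 and 1 reads in T-ALL spleen and T-ALL bone marrow and none in normal mice, and Nrtn, Artn and Pspn had at most 7 reads in any library. In both spleen libraries these 4 ligands thus had at most 4 reads each and Ret at most 13.

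Gfra2, the co-receptor for neurturin, moved the opposite way from Gfra1 in spleen. It was at 102 CPM in T-ALL spleen and 235 CPM in normal spleen, 2.30-fold lower, and at 23.0 CPM in T-ALL bone marrow, against 15.4 CPM in normal bone marrow. Gfra3 and Gfral had no read, and Gfra4 had 5 to 21 reads in each library. Gdf15, a stress-induced hormone that binds Gfral, was higher in both organs. It was at 48.0 CPM in T-ALL spleen and 18.7 CPM in normal spleen, and at 18.8 CPM in T-ALL bone marrow, against 1.62 CPM in normal bone marrow. Without Gfra1, 1 of 8 measured genes was higher and 1 lower in spleen, and 1 of 9 higher and 1 lower in bone marrow.

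Ptpn13 has 4 relatives among phosphatases with a FERM domain, of which Ptpn14 was higher in T-ALL spleen and Ptpn3 lower. Ptpn14, a regulator of YAP, was at 61.6 CPM in T-ALL spleen and 17.5 CPM in normal spleen, 3.53-fold higher (2.95 to 4.24). It was at 21.7 CPM in T-ALL bone marrow, against 8.93 CPM in normal bone marrow, 2.43-fold higher (1.88 to 3.16). Ptpn3 was 2.26-fold lower in T-ALL spleen, at 8.12 CPM against 18.3 CPM in normal spleen, while Ptpn4 was at 12.8 CPM in T-ALL spleen and 12.3 CPM in normal spleen. Ptpn21 was at 5.74 CPM in T-ALL spleen and 8.39 CPM in normal spleen.

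Of 15 partners and substrates of PTPN13, 10 were measured in spleen, of which 0 were higher and 3 lower. Among all 9774 genes measured there, 1080 were lower. The 3 lower partners were Erbb2, a receptor kinase, Plekha1, a lipid-binding adaptor, and Efnb1, an ephrin. They were at 5.95, 37.9 and 6.60 CPM in T-ALL spleen and at 21.3, 107 and 16.1 CPM in normal spleen. Fas, the death receptor, was at 5.52 CPM in T-ALL spleen and 10.4 CPM in normal spleen, below the 2-fold size. In bone marrow it ran the other way, at 10.8 CPM in T-ALL and 3.15 CPM in normal, 3.45-fold higher (2.28 to 5.33), and was the single partner of 9 to pass. Fas was also the single gene of 6 measured of its own pathway to do so, and none of 6 passed in spleen, where Casp8, which acts next to Fas, was at 105 CPM in T-ALL and 107 CPM in normal.

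Tead1 was the single gene of 13 measured of the Hippo list to pass in spleen, and none of 14 passed in bone marrow. Its co-activators were hardly seen. Yap1 had 5 and 0 reads in T-ALL spleen and T-ALL bone marrow and 2 and 2 reads in normal spleen and normal bone marrow, and Wwtr1, which encodes TAZ, had 1 and 4 reads in T-ALL spleen and T-ALL bone marrow and 1 and 2 reads in normal spleen and normal bone marrow. The other TEAD factors did not share the pattern of Tead1. Tead2 had 17 to 25 reads in each library, Tead3 at most 14 and Tead4 at most 1. Vgll4, which competes with YAP for TEAD factors, was at 22.5 CPM in T-ALL spleen and 17.9 CPM in normal spleen. Kinases of the pathway had levels in all libraries, with Stk4 at 282 CPM in T-ALL spleen and 371 CPM in normal spleen. Without Tead1 the median log2 fold of the list in spleen was -0.29.

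Target genes of YAP and TEAD factors gave no single direction in spleen. Of 22 listed, 10 were measured in each organ. In T-ALL spleen 2 were higher, Ptpn14 and Gadd45a (26.4 CPM, against 12.3 CPM in normal spleen), and 3 lower. The lower ones were Nuak2, a kinase, Crim1, and Axl, a receptor that macrophages use to take up dying cells. They were at 26.1, 10.8 and 575 CPM in T-ALL spleen and at 72.8, 27.0 and 1262 CPM in normal spleen. The standard targets Ccn1 and Ccn2 had at most 2 reads in any library and Ankrd1 at most 1. In bone marrow 3 were higher and 0 lower, namely Axl, Myof (52.2 CPM in T-ALL, 13.5 CPM in normal) and Ptpn14.

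**Figure D3:**
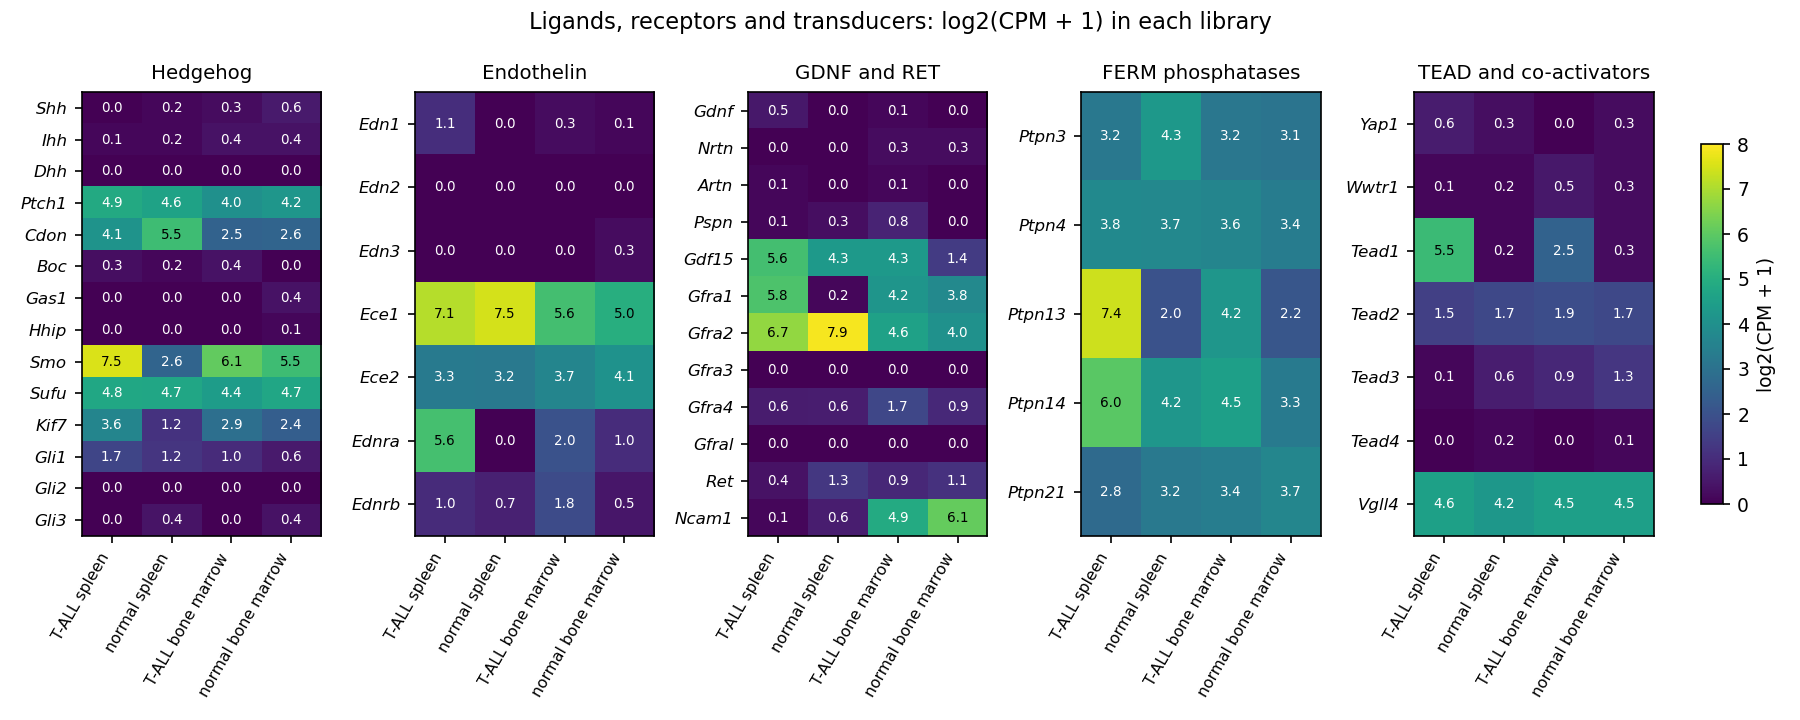
Levels as log2(CPM + 1), printed in each cell and shown by colour, of the ligands, receptors, transducers and relatives of the 5 genes in the 4 libraries. Smo, Ednra, Gfra1, Ptpn13 and Tead1 are each highest in T-ALL spleen, though Ece1 and Gfra2 lie above Ednra and Gfra1 there. The Hedgehog and endothelin ligands, Gdnf, Nrtn, Artn, Pspn, Ret, Yap1 and Wwtr1 stay low in all 4 libraries, while Gdf15 does not.

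Genes with the pattern most like each of the 5 were sought by Euclidean distance on log2(CPM + 1) over the 4 libraries, among 9576 genes with 10 CPM or more in any library. The nearest to Smo was Chdh, a choline dehydrogenase of mitochondria, at a distance of 1.27. It was at 133 and 70.0 CPM in T-ALL spleen and T-ALL bone marrow and at 4.03 and 100.03 CPM in normal spleen and normal bone marrow. Egln3 (1.53) and Shmt1 (1.76) followed. Nearest to Ednra were Fbln1, an extracellular matrix protein, at 0.59, then Tead1 at 0.93 and Lmcd1 at 1.21. Tead1 had Egr4, an immediate early transcription factor, at 0.77, Fbln1 at 0.78 and Ednra at 0.93. Ednra and Tead1 were thus the pair of the 5 closest to each other, and Smo and Tead1 the farthest apart, at 7.12.

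Gfra1 had Lipg, an endothelial lipase, at 1.34, the receptor Tnfrsf19 at 1.44 and Heyl at 1.53. Heyl was at 61.6 and 24.0 CPM in T-ALL spleen and T-ALL bone marrow and at 0.112 and 3.96 CPM in normal spleen and normal bone marrow. Ptpn13 had Ptgfrn at 1.43, Angptl2 at 1.5 and Igf2bp3, an RNA-binding protein of fetal tissues, at 1.59. Apart from Ednra and Tead1, the distances between the 5 genes ran from 2.95 (Gfra1 and Ptpn13) upward, more than those to the nearest other genes. With 4 libraries such likeness is a description of levels.

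Markers of other cells differed between the libraries in both directions. T cell genes, 19 in all, summed to 5139 CPM in T-ALL spleen and 1086 CPM in T-ALL bone marrow, against 1758 CPM in normal spleen and 296 CPM in normal bone marrow. In T-ALL spleen 14 of the 19 were higher and 1 lower than in normal spleen, single genes lying between 38.5 and 904 CPM in T-ALL spleen and between 39.4 and 256 CPM in normal spleen. In T-ALL bone marrow 16 of 17 measured were higher, and all 19 were higher in T-ALL spleen than in T-ALL bone marrow. No T cell gene was at 0 in any library. In spleen Lef1 and Thy1 changed the most, with log2 folds of 3.38 and 2.54, and in bone marrow Tcf7 and Cd3d, with 3.04 and 2.50. Normal spleen, second in T cell genes, was lowest for all 5 genes, or level with normal bone marrow in the case of Ptpn13 and Tead1. The choice took genes that were low in normal spleen, so nothing is read from that place.

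Genes of thymocytes and T-ALL cells, 18 in all, summed to 1907 and 1447 CPM in T-ALL spleen and T-ALL bone marrow and to 806 and 1412 CPM in normal spleen and normal bone marrow. The median gene of the list was at 41.2 and 46.3 CPM in T-ALL spleen and T-ALL bone marrow and at 8.78 and 6.14 CPM in normal spleen and normal bone marrow, so the sums follow the order of libraries of the 5 genes and the medians do not. In spleen 8 of 13 measured were higher and 2 lower, and in bone marrow 6 of 14 were higher. Single genes ran from 0 to 452 CPM in T-ALL spleen and from 0 to 320.5 CPM in normal spleen. Tlx1 and Tlx3 were at 0 in all libraries and Rag2 in normal spleen. Notch1, 1 of the 8 higher in spleen, was at 366 and 195 CPM in T-ALL spleen and T-ALL bone marrow. It was at 57.7 and 133 CPM in normal spleen and normal bone marrow. Myb, also higher in spleen, was highest in normal bone marrow, at 591 CPM. The 2 lower in spleen were Lmo2 and Cd1d1, at 43.5 and 24.0 CPM in T-ALL spleen and at 114 and 58.6 CPM in normal spleen. The part of T cells or leukaemia cells in the levels of the 5 genes was not tested.

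All 18 cell cycle genes were higher in T-ALL spleen, summing to 4133 CPM against 1057 CPM in normal spleen, and 0 of 18 passed in bone marrow, where they summed to 3508 CPM in T-ALL and 5555 CPM in normal. Macrophage markers differed in direction between the organs, which was not tested. Of 16, 1 was higher and 7 lower in T-ALL spleen, with sums of 6917 CPM there and 11841 CPM in normal spleen, and 15 were higher in T-ALL bone marrow, with sums of 10492 CPM there and 3844 CPM in normal bone marrow. The 5 genes were chosen as higher in T-ALL spleen, so nothing is read from the lower macrophage sum of that library. Among all 9774 genes measured in spleen, 1008 were higher and 1080 lower in T-ALL. Of 9 dendritic cell genes 8 were lower in T-ALL spleen, as were 4 of 7 B cell, 5 of 5 measured NK cell, 5 of 6 measured neutrophil and 1 of 3 measured erythroid genes, and no megakaryocyte gene was measured. In T-ALL bone marrow 2 of 5 dendritic cell, 1 of 7 B cell, 0 of 5 NK cell, 1 of 8 neutrophil, 3 of 5 erythroid and 0 of 2 megakaryocyte genes measured were higher, and 2 neutrophil genes were lower.

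Markers of stromal, vascular and neural cells were also counted. Smooth muscle and pericyte markers, in which Ednra is usual, summed to 8.88 and 13.0 CPM in T-ALL spleen and T-ALL bone marrow and to 4.92 and 4.97 CPM in normal spleen and normal bone marrow. None of the 8 reached 10 CPM, and Myh11, Cnn1 and Rgs5 were at 0 in T-ALL spleen. Schwann cell and neuron markers summed to 14.7 CPM in T-ALL spleen and 4.40 CPM in T-ALL bone marrow, against 7.94 CPM in normal spleen and 4.97 CPM in normal bone marrow, with Sox10 at 0 throughout and S100b at 0 in both spleen libraries. Fibroblast and stroma markers summed to 52.7 and 54.3 CPM in T-ALL spleen and T-ALL bone marrow, against 5.26 and 94.1 CPM in normal spleen and normal bone marrow. The sum was 10.03-fold higher (7.42 to 13.8) in T-ALL spleen than in normal spleen, and both measured genes of this list were higher there, Fbln1 with a log2 fold of 4.98 and Col1a1 with 3.89. In T-ALL spleen nearly all of that sum was Fbln1 at 34.2 CPM and Col1a1 at 13.9 CPM, while Col1a2, Col3a1, Pdgfra and Lum were at 0. Endothelial markers summed to 281 CPM in T-ALL spleen and 402 CPM in normal spleen, with 2 of 3 measured lower. In T-ALL bone marrow 2 of 3 measured stromal genes were lower and 1 of 3 measured endothelial genes was higher. The part of these cells in the levels of the 5 genes was not tested.

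**Figure D4:**
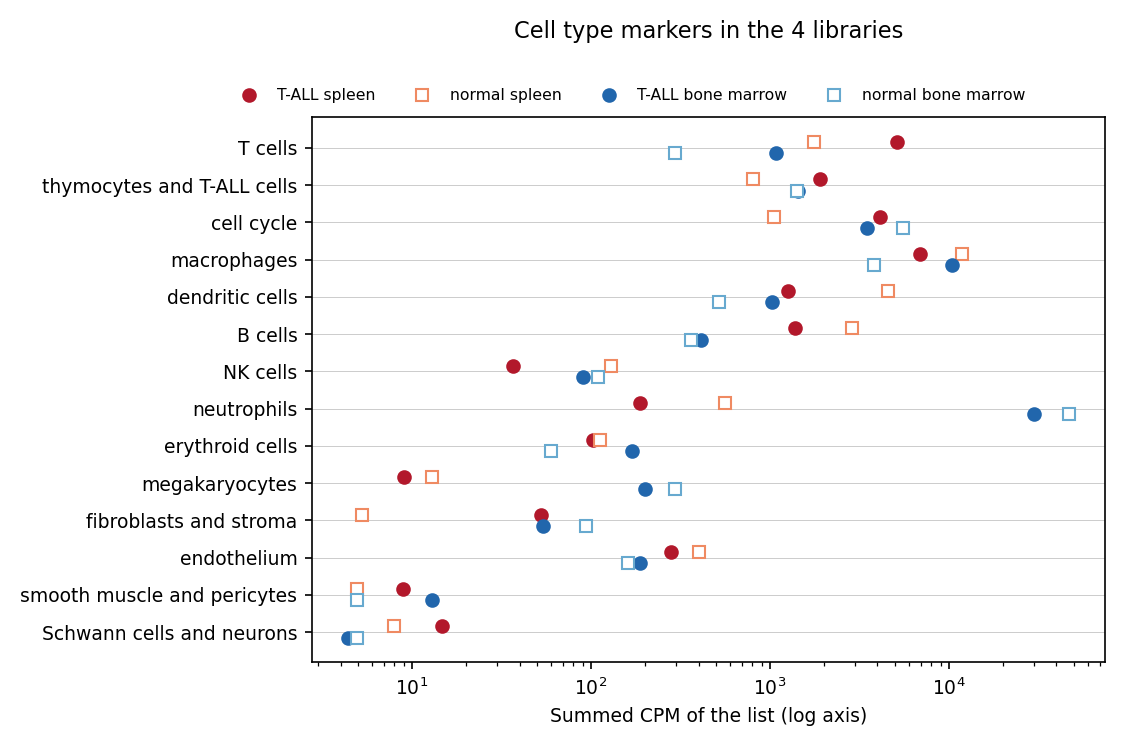
Summed CPM (log axis) of 14 lists of cell type markers in the 4 libraries, 1 point per library, with filled circles for T-ALL and open squares for normal. T cell, thymocyte, cell cycle and fibroblast sums are higher in T-ALL spleen than in normal spleen, macrophage and dendritic cell sums lower, and smooth muscle, Schwann cell and neuron sums stay below 15 CPM in every library.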

How the data were processed

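RNA of sorted macrophages was sequenced in 4 libraries, 1 for each group named in the sample titles. Per the file headers, each deposited table gives counts of uniquely mapped reads per gene, the gene's length in bases, coverage in percent of that length and RPKM. Recomputing the authors' RPKM from counts and lengths gave the deposited values to within 9.15e-06%. Genes without a line were set to 0. The sources used here do not name the aligner, counting rule, strand setting, build or annotation. The Gene ID gave back 23 symbols that a spreadsheet had made into dates, and current symbols (Adgre1, Ccn1, Ccn2) replace older ones.

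CPM was computed from the deposited counts with TMM factors of 0.991 to 1.008 (R 4.3.3 with edgeR 4.0.16). Log2 folds use a pseudocount of 1 CPM, which understates changes of low genes; ratios use none. Intervals are exact Poisson (levels) and exact binomial (ratios). With 1 library per group no test was made. The rest used scipy 1.17.1, numpy 2.4.6 and pandas 2.3.3 under Python 3.11.15, with figures by matplotlib 3.10.9. The size rule was tested on simulated data with counting error only and changes larger than the rule asks for. How it fares with differences between mice was not tested. Overlapping genes came from GENCODE M21 and promoters from RefSeq GRCm38.p6.

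The 5 genes, 10 pathway lists, 14 marker lists and 6 motifs were chosen with earlier results of these data known. Named are the 5 genes, per list the largest changes past the size rule (up to 5 for pathways, 3 for markers) or else the member with the highest level, all ligands, receptors, TEAD factors, YAP and TAZ, the 3 nearest genes by distance, and the genes around rank 10. Other genes were named after their values were seen, and some results are not reported here. Alternatives were other scalings, pseudocounts, minimums, fold sizes and the deposited RPKM.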

Additional observations from a re-analysis of the deposited data

Results flagged for a closer look

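Axl, counted here among the target genes of YAP and TEAD factors, moved in opposite directions in the organs. Its log2 fold of T-ALL over normal was -1.13 in spleen, where it was at 575 CPM in T-ALL and 1262 CPM in normal, and 3.11 in bone marrow, where it was at 534 CPM in T-ALL and 61.0 CPM in normal. Each group is a single library, and the difference between the organs was not tested. The macrophage marker sum moved the same way in each organ, at 6917 CPM in T-ALL spleen and 11841 CPM in normal spleen, and at 10492 CPM in T-ALL bone marrow, against 3844 CPM in normal bone marrow, and its part in the level of Axl was not tested.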

How the results depend on the processing

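All log2 folds of the 5 genes kept their sign in 120 of 120 values under other settings (scaling, pseudocounts of 0.1 and 5, the deposited RPKM). A pseudocount cannot change a sign, nor can division by gene length, so much of this was fixed in advance. Of the 120 values, 35 left the counting interval of the main value. The order of the 5 genes by log2 fold in spleen depends on the pseudocount. With 5 CPM, Ptpn13 (4.43) and Smo (4.25) lie above Gfra1 (3.51), Ednra (3.42) and Tead1 (3.23), and with 0.1 CPM, Ednra (8.92), Gfra1 (7.98) and Tead1 (7.66) lie above Ptpn13 (5.75) and Smo (5.18). Counts of the 5 genes called changed as follows. With a minimum of 50 CPM, 3 were called in T-ALL over normal spleen, 0 in T-ALL over normal bone marrow, 3 in T-ALL spleen over T-ALL bone marrow and 0 in normal spleen over normal bone marrow, where the usual minimum gave 5, 1, 5 and 2. With no minimum or 1 CPM, 2 were called in bone marrow and 3 between the normal organs, since Tead1 and Ednra were added. With the deposited RPKM and its minimum of 5 RPKM, 4 were called in spleen, 0 in bone marrow, 4 between the T-ALL organs and 1 between the normal organs, because Tead1, Ptpn13 and Gfra1 lie under that minimum there. At 4-fold, 3 were called between the T-ALL organs. Over all genes, in the same order of comparisons, 2088, 878, 1622 and 3039 were called. These became 1171, 466, 859 and 1760 with 50 CPM, 4299, 2058, 3268 and 4948 at 1.5-fold, and 367, 280, 616 and 1330 at 4-fold. With no minimum or 1 CPM, the counts of the T-ALL bone marrow comparison and of the T-ALL organs were 1326 and 2460. No paired analysis was possible because each group has 1 library, and for the same reason none could be left out. Depth limits what can be said of the Hedgehog and endothelin ligands, Gdnf, Nrtn, Artn, Pspn, Ret, Yap1 and Wwtr1, which had few reads or none.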
